A study of Homo sapiens with 6 samples.

Results

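The genes described here are 39 human genes of the unfolded protein response and the secretory pathway, whose products fold, modify, export or degrade proteins of the endoplasmic reticulum (ER) or sense stress there. They comprise 12 chaperones and folding enzymes, 7 genes of ER-associated degradation, 6 genes of the ATF4 branch (ATF4-type genes), 4 sensors and transcription factors, and 10 other secretory genes. A gene was read by a probe set annotated to its symbol alone, and by the one with the highest mean signal over the 6 arrays where it had several. This gave a value for 37 of the 39 genes, out of 19775 genes with such a probe set. All 37 passed the filter on dim genes, which left 12961 genes in the tests. SYVN1, the ubiquitin ligase of ER-associated degradation, and TXNDC5, an ER disulfide isomerase, had only probe sets shared with another symbol and were not tested.

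Gene expression was read with 6 Affymetrix arrays (HG-U133 Plus 2.0) in KARPAS-422 and Pfeiffer, established human cell lines. Both come from diffuse large B-cell lymphomas, which arise from mature B cells. Cells received a lentivirus with a hairpin RNA against EZH2 (shEZH2) or against a sequence that mammals lack (shNTC) and were labelled with 10 days of treatment. EZH2 encodes the histone H3 methyltransferase of Polycomb repressive complex 2, a silencer of its target genes. The groups were KARPAS-422 with shEZH2 (2 arrays), KARPAS-422 with shNTC (2 arrays), Pfeiffer with shEZH2 (1 array) and Pfeiffer with shNTC (1 array). All 4 groups shared 10% serum, 2 days of virus, polybrene at 8 µg/ml and 2 days of puromycin at 1 µg/ml. Each arm used 1 hairpin sequence, so the loss of EZH2 and other effects of that hairpin cannot be told apart. The KARPAS-422 arrays are labelled as biological replicates, but whether they were separate infections is not stated, and the spread that the p-values rest on may be technical.

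The unfolded protein response starts from 3 sensors in the ER membrane. ATF6 is cut and moves to the nucleus, IRE1 (gene ERN1) splices the message of XBP1, and both branches are known to raise ER chaperones and degradation genes. PERK (gene EIF2AK3) phosphorylates the translation factor eIF2α, which slows protein synthesis and favours translation of ATF4. ATF4 then drives genes of amino acid supply and stress, and it also answers amino acid shortage through other eIF2α kinases, without any stress in the ER. In B cells this machinery expands as cells become antibody-secreting plasma cells, a step that needs XBP1.

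The promoters of the genes carry these branches as short motifs, and the stretches below are those that hold the matches in the chaperones, the ATF4-type genes and HERPUD1. Other members of both groups held none where they could be searched. The RefSeq promoter table (GRCh38.p14, 250 bases before to 50 after each start) held 36 of the 39 genes, and all annotated starts of a gene were searched on both strands. The chaperone PDIA3 and the degradation genes DERL1 and DERL3 had no entry and were not searched. Sequences run 5′ to 3′ on the gene's strand, with each match and the bases of overlapping matches in capitals. The ER stress element (ERSE, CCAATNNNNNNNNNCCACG) is known to be bound by NF-Y and ATF6. It was found in 5 of the 36 genes, all of them chaperones, against 0.0916% of all 27305 genes in the table. These matches lie at chr9:125241381-125241419 (minus strand) for HSPA5, chr12:103930206-103930349 (plus strand, 2 matches) for HSP90B1, chr19:12938374-12938412 (plus strand) for CALR, chr2:10812843-10812881 (minus strand, before an alternative start) for PDIA6 and chr22:49918544-49918582 (plus strand) for CRELD2.
HSPA5: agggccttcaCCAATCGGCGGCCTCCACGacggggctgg
HSP90B1: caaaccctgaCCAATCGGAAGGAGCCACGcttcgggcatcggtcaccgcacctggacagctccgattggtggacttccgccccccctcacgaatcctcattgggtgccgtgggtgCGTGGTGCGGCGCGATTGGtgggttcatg
CALR: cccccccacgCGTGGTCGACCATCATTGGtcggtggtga
PDIA6: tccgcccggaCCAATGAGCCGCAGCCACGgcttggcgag
CRELD2: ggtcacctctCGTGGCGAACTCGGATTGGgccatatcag

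A second form, ERSE-II (ATTGGNCCACG), was found in 3 of the 36 genes, against 0.0696% of all genes. They were the chaperones SDF2L1 at chr22:21642104-21642134 (plus strand) and HYOU1 at chr11:119057264-119057403 (minus strand, 2 matches), and HERPUD1, which marks the degradation machinery, at chr16:56931956-56932045 (plus strand). In HYOU1 the first ERSE-II overlaps a match to the XBP1 element UPRE (TGACGTGG). HERPUD1 also holds, upstream of its ERSE-II, the core of the C/EBP-ATF response element (CARE, TGATGNAA), which ATF4 is known to bind. UPRE was in 4 of the 36 genes (HYOU1, SSR4, TXNDC5 and TXNDC11), against 0.927% of all genes.
SDF2L1: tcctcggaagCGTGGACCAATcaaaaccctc
HYOU1: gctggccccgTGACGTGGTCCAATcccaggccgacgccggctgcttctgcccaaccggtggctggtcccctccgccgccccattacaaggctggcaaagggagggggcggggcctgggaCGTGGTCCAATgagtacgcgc
HERPUD1: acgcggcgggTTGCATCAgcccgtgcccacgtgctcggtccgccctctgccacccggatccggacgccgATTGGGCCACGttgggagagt

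The CARE core was found in 3 of the 6 ATF4-type genes, in HERPUD1 and CREB3L2, and in 0 of 11 chaperones in the table, against 4.46% of all genes. The ATF4-type matches lie at chr1:212565206-212565233 (plus strand) for ATF3, chr7:97872459-97872486 (minus strand) for ASNS and chr15:40953252-40953279 (plus strand) for CHAC1. A match describes the letters of the window and is not evidence that a factor binds there, and a window without a match shows only that these letters are missing from it.
ATF3: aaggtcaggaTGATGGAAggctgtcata
ASNS: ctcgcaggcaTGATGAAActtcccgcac
CHAC1: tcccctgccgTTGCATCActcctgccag

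All values below are log2 MAS5 signals, and a difference is shEZH2 minus shNTC on that scale unless another pair is named. EZH2 read 10.52 and 10.55 on the KARPAS-422 shEZH2 arrays, against 11.71 and 11.57 on the shNTC arrays (-1.11, SE 0.10, adjusted p = 7.44e-04), which left 46.3% of the control signal. In Pfeiffer it read 10.24 with shEZH2 and 11.65 with shNTC, which left 37.6%. Scaling to a common target gave all 6 arrays the same trimmed mean. Of 8 B cell markers, 7 had a single-gene probe set and all 7 were above the array median on at least 2 arrays, while the summed linear signal of 8 myeloid markers stayed between 185 and 322. That of 10 fibroblast and epithelial markers was 9347 to 13971, with DCN bright in KARPAS-422 (13.43 to 13.71) and EPCAM in Pfeiffer (12.98 with shEZH2 and 13.33 with shNTC). CD3D and CD3G in KARPAS-422 and CD8A in Pfeiffer also gave clear signal, which differs from a plain B cell pattern. With shEZH2 in KARPAS-422, CD3D (-0.77) and CD3G (-0.64) were called lower, the B cell marker CD79B was called higher (0.39, adjusted p = 0.0165) and, of 8 plasma cell markers, JCHAIN was called higher (1.81, adjusted p = 0.0224); the part of these in the results below was not tested. The 3′ minus 5′ log2 signal of ACTB, a sign of RNA quality, was 0.138 and 0.175 on the KARPAS-422 shEZH2 arrays, against 0.0593 and 0.0830 on the shNTC arrays. The same measure of GAPDH overlapped between the arms, with -0.169 and -0.241 for shEZH2 against -0.183 and -0.158 for shNTC, and the part of RNA quality in the results below was not tested. In bulk RNA, a change in the make-up of the culture and a change in RNA per cell cannot be told apart.

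One array stood apart for the genes described here. KARPAS-422 shNTC replicate 1 read higher than shNTC replicate 2 for all 6 ATF4-type genes, and by at least 1 log2 unit for 5 of them, where 2.54% of all genes tested were that much higher. CHAC1, a glutathione-degrading enzyme that ATF4 drives, read 12.05 against 6.64 on these 2 control arrays, the widest such gap among the 12961 genes. For the ATF4-type genes, and for other named pathway genes whose KARPAS-422 call was lost without replicate 1, values without it are also given.

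**Figure D1:**
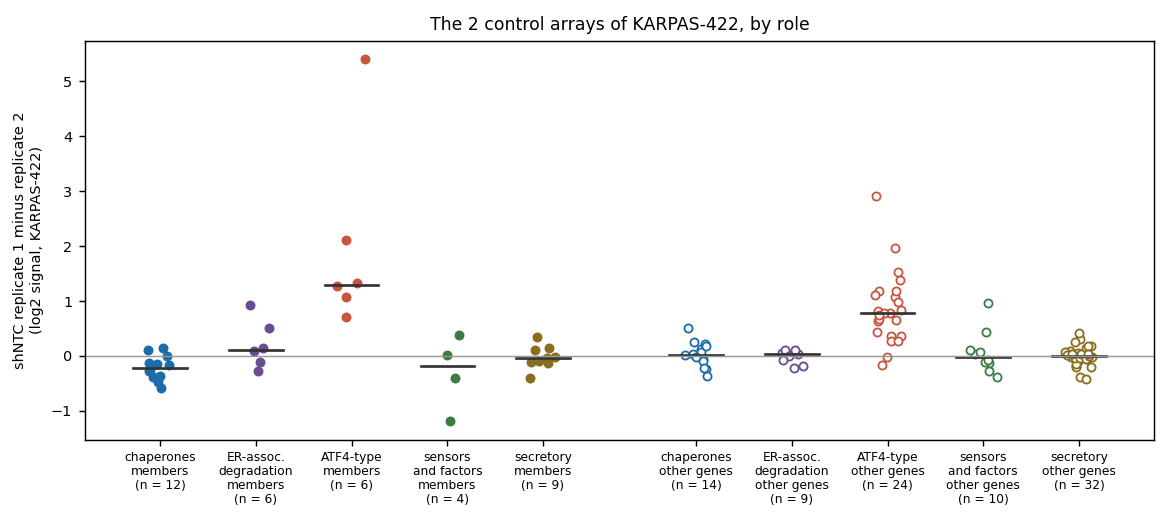
Log2 signal on KARPAS-422 shNTC replicate 1 minus that on replicate 2 for each gene, by role, with filled points for the 37 genes described here, open points for other genes of the same pathways, and bars at the medians. The ATF4-type medians are 1.30 and 0.78, while the chaperone medians are -0.21 and 0.03.

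In KARPAS-422, ER chaperones were lower with shEZH2, by up to 0.79 log2 units (MANF, -0.79). Of the 12 chaperones and folding enzymes, 8 were lower, DNAJB9 was higher and 3 were not called, where 12.4% of all genes tested were called lower and 13.1% higher. The median difference over the 12 was -0.40, against -0.02 over all genes tested. For 11 of the 12, both shEZH2 arrays lay below both shNTC arrays, an arrangement that 34% of all genes showed, and for DNAJB9 both lay above, as for 31.8% of all genes.

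The largest decrease was that of MANF, an ER-resident protein secreted under stress. MANF read 11.55 and 11.60 on the shEZH2 arrays, against 12.23 and 12.49 on the shNTC arrays (-0.79, SE 0.10, adjusted p = 0.00304). The 2 groups were separated by more than the gap within either, and 58.0% of the control signal was left. SDF2L1, a partner of the DnaJ proteins of the ER, read 10.74 and 10.63 with shEZH2, against 11.11 and 11.69 with shNTC (-0.71, SE 0.18, adjusted p = 0.0257). CRELD2, an ER stress-induced disulfide isomerase-like protein, read 11.22 and 10.97, against 11.58 and 11.96 (-0.67, SE 0.15, adjusted p = 0.0158). For both genes the shNTC arrays differed from each other by more than the shEZH2 arrays did.

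HSPA5, which encodes BiP, the main Hsp70 of the ER and the standard readout of the response, fell less. It read 13.15 and 13.04 on the shEZH2 arrays, against 13.34 and 13.82 on the shNTC arrays (-0.48, SE 0.14, adjusted p = 0.0471). The control arrays differed from each other by as much as the arms did on average, and the call sits just under the threshold. PDIA6, a disulfide isomerase, read 12.55 and 12.50, against 12.90 and 13.06 (-0.45, SE 0.08, adjusted p = 0.00812).

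Smaller decreases were called for CALR (calreticulin, a lectin chaperone of glycoproteins, -0.34), PDIA4 (a disulfide isomerase, -0.33) and DNAJB11 (a co-chaperone of BiP, -0.29), with adjusted p between 0.0369 and 0.0454. HYOU1 (a large Hsp70-like chaperone, -0.65, adjusted p = 0.0544), HSP90B1 (the ER form of Hsp90, -0.24, adjusted p = 0.143) and PDIA3 (an isomerase that works with calreticulin, -0.20, adjusted p = 0.0759) did not pass. DNAJB9, a co-chaperone of BiP that restrains IRE1, read 11.30 and 11.26 with shEZH2, against 10.91 and 10.77 with shNTC (0.44, SE 0.10, adjusted p = 0.0198). Its 3 kept probe sets all read higher with shEZH2.

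**Figure D2:**
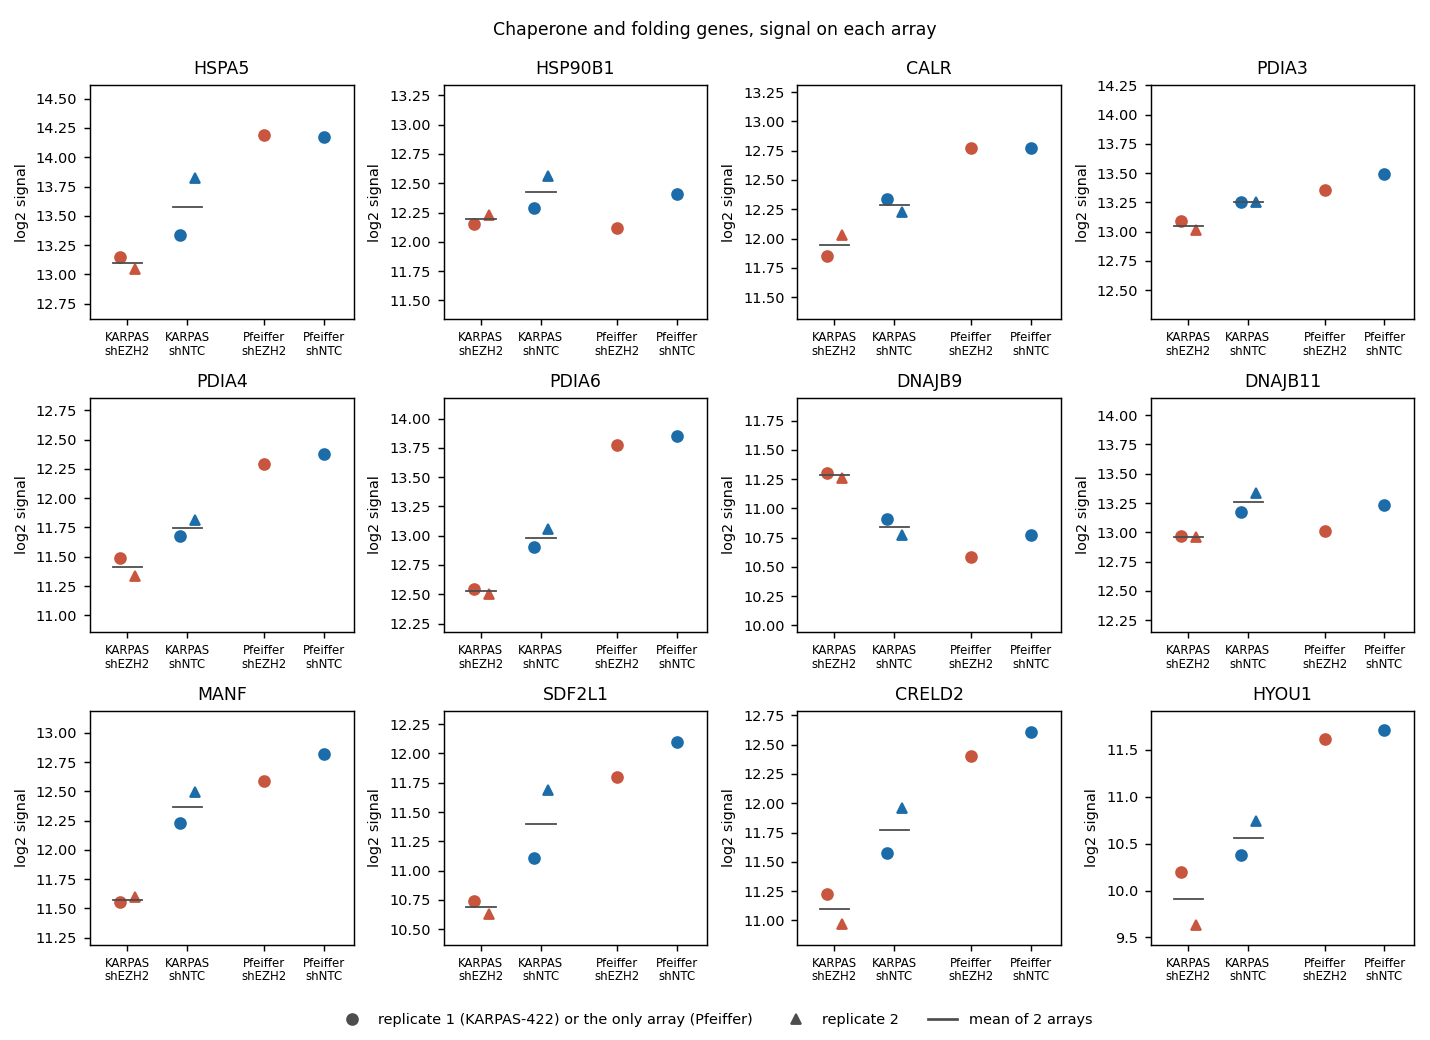
Log2 signal of each of the 12 chaperones and folding enzymes on the 6 arrays, with a circle for replicate 1 or the only array, a triangle for replicate 2 and a line at the mean of 2 arrays; each panel has its own vertical axis. In KARPAS-422 both shEZH2 arrays lie below both shNTC arrays in every panel but that of DNAJB9, and in Pfeiffer the 2 arms differ by at most 0.30.

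Part of this decrease depended on the scaling between arrays. After cyclic loess, which removes differences that run with brightness, 3 of the 12 chaperones were called lower (MANF -0.65, SDF2L1 -0.65 and CRELD2 -0.57) and DNAJB9 was called higher (0.47), where 9.37% of all genes were called lower and 12.3% higher. The median of the 12 moved to -0.22, against -0.03 for all genes. HSPA5 moved to -0.21 (adjusted p = 0.347), CALR to -0.19 (adjusted p = 0.186) and PDIA6 to -0.23 (adjusted p = 0.0711), and the decreases of PDIA4 (-0.23, adjusted p = 0.127) and DNAJB11 (-0.07, adjusted p = 0.567) were no longer called either. PDIA3, at -0.20 as deposited, read 0.04 after cyclic loess.

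Left out in turn, the shEZH2 arrays mattered most for the number of calls. The 8 chaperones called lower became 2 without shEZH2 replicate 1 and 1 without replicate 2, in fits that also called fewer genes overall (577 and 472 lower, against 1612). Without shNTC replicate 1 there were 7, with a median of -0.47, and CALR (-0.29, adjusted p = 0.149) and PDIA4 (-0.40, adjusted p = 0.0591) were not among them, and without shNTC replicate 2 there were 3, with a median of -0.32. Over the 4 possible pairs of an shEZH2 with an shNTC array, the medians of the 12 ran from -0.52 to -0.20. That 11 of the 12 read lower in each pair follows from the separation of the arms given above and adds no support.

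By promoter motif, 4 of the 5 ERSE genes shown above were called lower (HSPA5, CALR, PDIA6 and CRELD2), as was SDF2L1 of the 3 with ERSE-II. MANF, PDIA4 and DNAJB11, which were also called lower, held no match to the ERSE, ERSE-II or UPRE letters. Of 14 other ER folding genes tested, which are not among the 39, 2 were lower and 2 were higher, close to the 12.4% and 13.1% of all genes, and the median was 0.11; their difference from the 12 was not tested. CANX (calnexin, the membrane partner of calreticulin) was at -0.42 (adjusted p = 0.00860) and FKBP2 (a prolyl isomerase) at -0.57 (adjusted p = 0.0392), while SIL1 (a nucleotide exchange factor of BiP) was at 0.95 (adjusted p = 0.00864) and ERO1B (an oxidase of disulfide isomerases) at 0.80 (adjusted p = 0.0464). Without shNTC replicate 1 the ERO1B call was lost (0.83, adjusted p = 0.0658).

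ER-associated degradation genes act in passing misfolded proteins to the proteasome. In KARPAS-422, limma called 0 of the 6 tested in either direction, where 12.4% of all genes were called lower and 13.1% higher, and the median difference was 0.02. An unadjusted p under 0.05 was reached by 0 of the 6, but the share of all genes at that threshold is not given here or below. HERPUD1, a scaffold of the ligase complex, read 12.30 and 12.17 with shEZH2, against 13.21 and 12.28 with shNTC, so that the high value lay on shNTC replicate 1 alone. Its difference of -0.51 (adjusted p = 0.187) was -0.04 without that array and -0.98 without the other control array (adjusted p = 7.61e-04). EDEM1, which removes mannose from terminally misfolded glycoproteins, was at 0.20, the ligase subunit SEL1L at 0.12, and the derlins DERL2 and DERL3, membrane parts of the export channel, at -0.08 and 0.12.

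DERL1, another derlin, depended on the probe set. The brightest was at -0.14 (adjusted p = 0.272), while its 3 other kept probe sets were at 0.10, 0.41 and 0.45. With probe sets that may cross-match left out, DERL1 was called higher (0.41, adjusted p = 0.0167). SYVN1 read 11.09 and 10.79 with shEZH2, against 10.73 and 10.62 with shNTC, through a probe set shared with the microRNA gene MIR6751. Among 9 other degradation genes, the segregase VCP (-0.43, adjusted p = 0.00875) and the ubiquitin-conjugating enzyme UBE2J1 (-0.51, adjusted p = 0.0108) were called lower and 0 were called higher. Of all genes tested, 12.4% were called lower and 13.1% higher.

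All 6 ATF4-type genes had a negative difference in KARPAS-422, with a median of -0.84. limma called 0 of the 6, where 12.4% of all genes were called lower and 13.1% higher, and 1 (ASNS) had an unadjusted p under 0.05. ATF4 itself, the transcription factor of this branch, read 12.92 and 12.63 with shEZH2, against 14.02 and 12.75 with shNTC (-0.60, SE 0.35, adjusted p = 0.242). One control array was high, and the other lay between the 2 shEZH2 arrays.

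DDIT3, which encodes the pro-apoptotic factor CHOP, read 8.79 and 8.11 with shEZH2, against 10.72 and 8.60 with shNTC (-1.21, SE 0.60, adjusted p = 0.177). ASNS, asparagine synthetase, read 12.06 and 12.05, against 13.73 and 12.41 (-1.01, SE 0.36, adjusted p = 0.0753). For ASNS both shEZH2 arrays lay below both shNTC arrays, while for DDIT3 the arms overlapped. TRIB3, a pseudokinase that damps the branch, read 11.84 and 12.08 with shEZH2, against 13.16 and 12.09 with shNTC (-0.67, SE 0.30, adjusted p = 0.142).

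ATF3, a stress-induced factor downstream of ATF4, read 7.10 and 7.53 with shEZH2, against 8.07 and 7.35 with shNTC (-0.40, SE 0.31, adjusted p = 0.388). CHAC1 read 8.13 and 7.39 with shEZH2, against 12.05 and 6.64 with shNTC (-1.58, SE 1.44, adjusted p = 0.459). For all 6 genes the highest of the 4 KARPAS-422 values was that of shNTC replicate 1, and for ATF4, ATF3, DDIT3 and CHAC1 the other control value lay below at least 1 shEZH2 value.

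**Figure D3:**
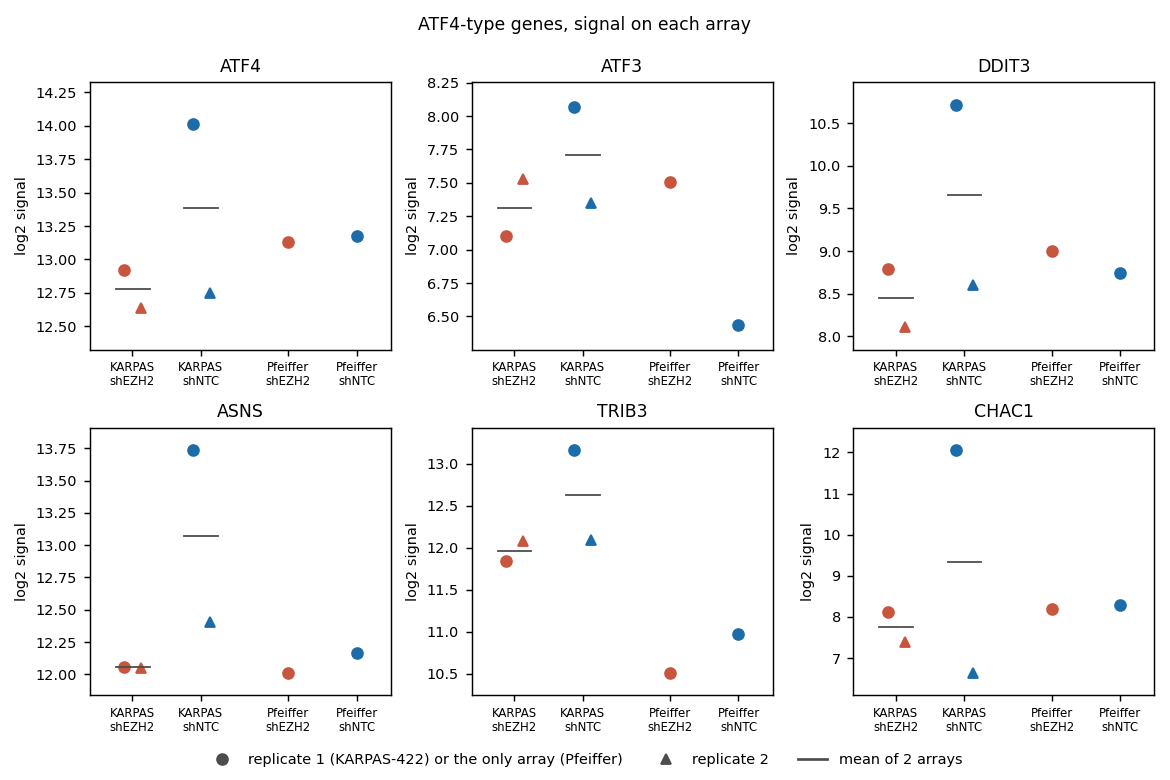
Log2 signal of the 6 ATF4-type genes on each array, with a circle for replicate 1 or the only array, a triangle for replicate 2 and a line at the mean of 2 arrays; each panel has its own vertical axis. In each panel shNTC replicate 1 is the highest of the 4 KARPAS-422 arrays, at 12.05 against 6.64 on the other control array for CHAC1.

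With shNTC replicate 1 left out, the median of the 6 was -0.08 and 0 were lower, while CHAC1 was called higher (1.13, adjusted p = 0.0410); in that fit 8.53% of all genes were called lower and 11% higher, with a median of -0.04. With shNTC replicate 2 left out, the median was -1.46 and 5 of the 6 were called lower, among them ASNS at -1.68 (adjusted p = 3.14e-05) and CHAC1 at -4.29 (adjusted p = 2.23e-05). In that fit 8.56% of all genes were called lower, with a median of -0.0045. Which control array is kept thus set both the size of the difference and, for CHAC1, its sign. Cyclic loess changed this little: the median over all 4 arrays was -0.71, 0 of 6 were called, and 5 of 6 were still higher by at least 1 on shNTC replicate 1.

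Other genes of the ATF4 branch followed the same control array. Of 24 tested, 22 read higher on shNTC replicate 1 than on replicate 2, where 45% of all genes did, and 8 did so by at least 1 log2 unit. SESN2, a stress-induced regulator of growth signalling, was 2.91 higher there, and CEBPB, a partner of ATF4, 1.96 higher. In KARPAS-422, 10 of the 24 were called lower with shEZH2 and 0 higher, with a median of -0.75, where 12.4% of all genes were called lower. The count was 3 without shNTC replicate 1 and 19 without replicate 2, where 8.53% and 8.56% of all genes were called lower. The largest called differences were those of the serine and glycine enzymes PHGDH (-1.0002, adjusted p = 0.0311) and SHMT2 (-0.96, adjusted p = 0.0128) and of the translation repressor EIF4EBP1 (-0.91, adjusted p = 0.0496). SHMT2 was still called without shNTC replicate 1 (-0.63, adjusted p = 0.0101), while PHGDH (-0.58, adjusted p = 0.0561) and EIF4EBP1 (-0.43, adjusted p = 0.0842) were not.

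The chaperones did not share the high values of that array. Of the 12, 9 read lower on shNTC replicate 1 than on replicate 2, with a median of -0.21, where 45% of all genes read higher on replicate 1. HSPA5 read 13.34 there against 13.82 on replicate 2, and SDF2L1 11.11 against 11.69. HERPUD1, whose promoter holds both an ERSE-II and a CARE core, went with the ATF4-type genes and was 0.94 higher on replicate 1. CREB3L2, a dim gene that also holds a CARE core, went the other way (-1.19, replicate 1 minus replicate 2). EDEM1, with no match, was 0.51 higher on replicate 1. The 3 ATF4-type genes with a CARE core (ATF3, ASNS and CHAC1) and the 3 with no match (ATF4, DDIT3 and TRIB3) were all higher there. The titles give no reason for the difference between the 2 control arrays, and its cause was not tested.

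Of the 4 sensors and factors, EIF2AK3 and ERN1 were called higher with shEZH2 in KARPAS-422 and 0 lower, where 13.1% of all genes were called higher and 12.4% lower. EIF2AK3 (PERK) read 10.61 and 10.71 with shEZH2, against 10.09 and 10.06 with shNTC (0.58, SE 0.11, adjusted p = 0.0102). The arms were well apart, the control arrays differed by 0.022, and the call held after cyclic loess (0.55, adjusted p = 0.0157). ERN1 (IRE1) read 7.40 and 7.07 with shEZH2, against 5.88 and 6.28 with shNTC (1.15, SE 0.29, adjusted p = 0.0280). This is a dim gene whose shNTC replicate 1 value lay below the median of all signals (6.21), 1 of its 2 other kept probe sets had the opposite sign, and the mean of its kept probe sets gave 0.41 (adjusted p = 0.364). The ERN1 call was also lost without shNTC replicate 1 (0.95, adjusted p = 0.0713), and both calls were lost without either shEZH2 array.

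ATF6 read 10.65 and 10.89 with shEZH2, against 10.48 and 10.11 with shNTC (0.48, adjusted p = 0.0640), and it passed without shNTC replicate 1 (0.67, adjusted p = 0.0217). CREB3L2, a membrane-bound factor that drives export vesicle genes, was at -0.45 (adjusted p = 0.537) and below the median of all signals on all 4 KARPAS-422 arrays. Sensor messages report neither cleavage of ATF6 nor splicing or phosphorylation, which arrays of this kind do not measure.

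XBP1, which is not among the 39 but carries the IRE1 signal, read 10.30 and 10.44 with shEZH2, against 11.76 and 10.79 with shNTC (-0.91, SE 0.27, adjusted p = 0.0467). It was high on shNTC replicate 1, like the ATF4-type genes, and without that array the difference was -0.42 (adjusted p = 0.0529). After cyclic loess it was -0.82 (adjusted p = 0.0724), and a second, dim probe set was at 1.497. The probe sets do not separate spliced from unspliced XBP1. Among 10 other sensor and factor genes, XBP1 included, 2 were lower and 1 was higher, where 12.4% of all genes were called lower and 13.1% higher. EIF2S1 (the eIF2α subunit itself) was at -0.54 (adjusted p = 0.00469). EIF2AK2 (PKR, an eIF2α kinase that answers double-stranded RNA and interferon) read 12.79 and 12.74 with shEZH2, against 11.45 and 11.55 with shNTC (1.26, SE 0.09, adjusted p = 2.77e-04).

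Of the 9 secretory genes tested, 3 were lower with shEZH2 in KARPAS-422, 0 were higher and the median was -0.23, where 12.4% of all genes were called lower and 13.1% higher and the median of all was -0.02. Without shNTC replicate 1 the median of the 9 was -0.05. SEC11C, a catalytic subunit of the signal peptidase, read 11.54 and 11.63 with shEZH2, against 11.97 and 12.09 with shNTC (-0.45, SE 0.09, adjusted p = 0.0110). PRDX4, the ER peroxiredoxin, read 12.24 and 12.25, against 12.58 and 12.69 (-0.39, SE 0.08, adjusted p = 0.0130). PPIB, cyclophilin B, read 13.21 and 13.19, against 13.45 and 13.53 (-0.29, SE 0.07, adjusted p = 0.0224). In these 3 genes both shEZH2 arrays lay below both shNTC arrays, as for 34% of all genes, and each call was lost without either shEZH2 array. The PPIB call was also lost without either control array (-0.33, adjusted p = 0.0587 without shNTC replicate 1, and -0.25, adjusted p = 0.137 without replicate 2), and that of PRDX4 without shNTC replicate 2 (-0.34, adjusted p = 0.0687).

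On the probe sets used, the other 6 lay between -0.24 and 0.03: the prolyl isomerase FKBP11, the ER thioredoxin TXNDC11, the signal peptidase subunit SPCS3, the retrieval receptor KDELR1, the translocon-associated SSR4 and the translocon subunit SEC61B. SPCS3 depended on the probe set: its dimmer kept ones were at -0.78 and 0.09 in KARPAS-422, and at -0.63 and -0.23 in Pfeiffer. After cyclic loess the median was -0.03, SEC11C was still called lower (-0.30, adjusted p = 0.0456), PRDX4 was at -0.22 (adjusted p = 0.0771), PPIB was at -0.03 and SEC61B was called higher (0.31, adjusted p = 0.00947). As deposited SEC61B read 13.51 and 13.47 with shEZH2, against 13.47 and 13.48 with shNTC (0.02, adjusted p = 0.860), and it was not called. Its second, dim kept probe set was at 0.65 in KARPAS-422 and 0.75 in Pfeiffer as deposited. The cause of the changed call was not tested. TXNDC5 read 11.06 and 10.93 with shEZH2, against 11.65 and 11.67 with shNTC, through a probe set shared with the read-through gene BLOC1S5-TXNDC5. Of 32 other secretory genes, 4 were lower, a share near the 12.4% of all genes, and 1 was higher, with SEC13, a coat subunit of export vesicles, at -0.54 (adjusted p = 0.00734), OSTC of the glycosylation complex at -0.34 (adjusted p = 0.0185), the cargo receptor TMED2 at -0.28 (adjusted p = 0.0214) and the translocon-associated SEC62 at 0.28 (adjusted p = 0.0439). Without shNTC replicate 1 there were 1 lower and 0 higher, and OSTC (-0.36, adjusted p = 0.0557), TMED2 (-0.26, adjusted p = 0.124) and SEC62 (0.27, adjusted p = 0.155) were no longer called.

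**Figure D4:**
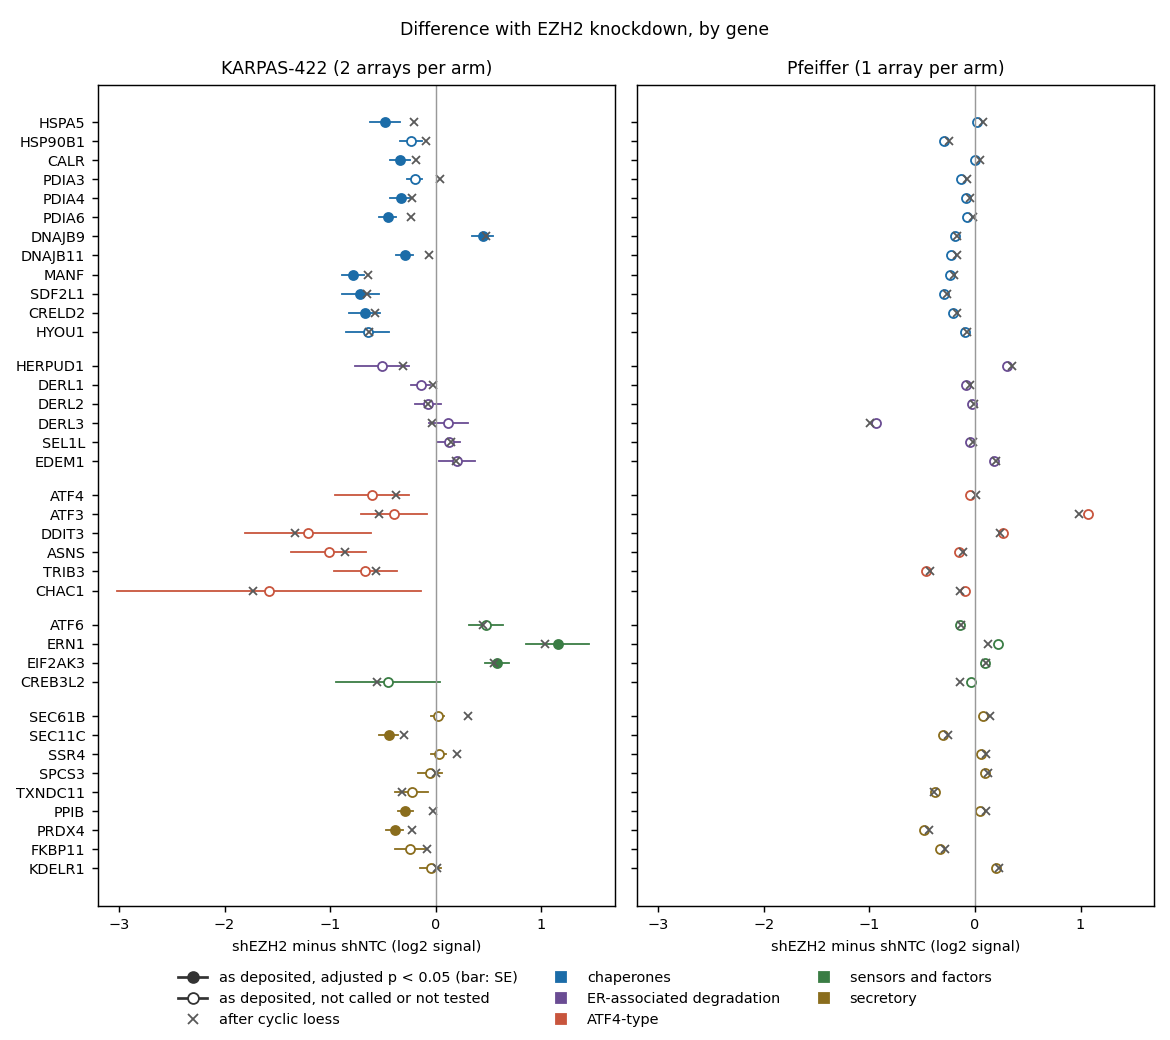
Difference with EZH2 knockdown (shEZH2 minus shNTC, log2 signal) for the 37 genes by role, in KARPAS-422 with the standard error and in Pfeiffer from 1 array per arm; filled circles are called at an adjusted p under 0.05, and crosses show the value after cyclic loess. In KARPAS-422 the chaperones and several secretory genes shift toward 0 after cyclic loess, and the ATF4-type genes have the widest errors, up to 1.44 for CHAC1.

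In Pfeiffer, with 1 array per arm and no test, the differences were small for nearly all of these genes. ATF3 was the only one past 1 log2 unit, at 7.51 with shEZH2 and 6.43 with shNTC (1.07 as deposited and 0.99 after cyclic loess), where 3.2% of all genes tested were that much higher; its second kept probe set, of like mean signal, had the opposite sign (7.32 with shEZH2 and 7.48 with shNTC, -0.17). DERL3 had the largest decrease, at 8.07 with shEZH2 and 9.01 with shNTC (-0.94), where 1.44% of all genes were lower by more than 1; its second kept probe set was at -0.29. The chaperones read lower for 11 of 12, where 45.4% of all genes did, with CALR counted as lower at -1e-04. On the probe sets used they were lower by at most 0.30, and their median was -0.16 (-0.12 after cyclic loess). HSPA5 read 14.19 with shEZH2 and 14.18 with shNTC, and CALR 12.77 in both arms. The second, dimmer kept probe set of HSPA5 read 8.75 with shEZH2 and 9.38 with shNTC (-0.63), and that of PDIA4 was at -0.39.

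The other ATF4-type genes of Pfeiffer went in both directions: DDIT3 was at 0.26, ATF4 at -0.05, CHAC1 at -0.09, ASNS at -0.15 and TRIB3 at -0.46, with a median of -0.07 for the 6. EIF2AK3 (0.10), ERN1 (0.22), ATF6 (-0.14) and CREB3L2 (-0.03) all lay within 0.22 of 0. On the probe sets used, the largest secretory decreases were those of PRDX4 (12.42 with shEZH2 and 12.90 with shNTC, -0.48), TXNDC11 (-0.38), FKBP11 (-0.33) and SEC11C (-0.30).

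Fitted over both lines with the line as a term, 3 genes were lower and 0 higher, where 2.47% of all genes were called lower and 3.77% higher. They were MANF (-0.60, SE 0.13, adjusted p = 0.0430), SEC11C (-0.40, SE 0.09, adjusted p = 0.0422) and PRDX4 (-0.42, SE 0.08, adjusted p = 0.0346). Each read lower with shEZH2 in both lines. At an unadjusted p under 0.05 there were 12 lower and 2 higher, but the share of all genes at that threshold is not given. After cyclic loess 0 were lower and SEC61B was higher, where 1.87% and 3.73% of all genes were called, and without any single KARPAS-422 array 0 were called lower.

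The difference between the lines in their response was tested directly, as the KARPAS-422 minus the Pfeiffer difference. limma called 0 of the 37 genes in either direction, where 1.31% of all genes were called higher and 0.486% lower. An unadjusted p under 0.05 was reached by 7 of the 37, but the share of all genes at that threshold is not given. After cyclic loess it also called 0, where 1.22% of all genes were called higher and 0.432% lower. The smallest adjusted p was that of DNAJB9 (0.63, SE 0.18, adjusted p = 0.140). The median was -0.36 for the chaperones and -1.16 for the ATF4-type genes, against -0.05 for all genes, so a smaller response in Pfeiffer is not shown for any single gene. Without shNTC replicate 2, which leaves 1 control array in KARPAS-422, the differences were -1.19 for ATF4, -2.53 for DDIT3, -1.525 for ASNS, -4.19 for CHAC1 and -1.28 for HERPUD1. Without replicate 1 instead, they were 0.08, -0.41, -0.20, 1.22 and -0.34. Of the other pathway genes EIF2AK2 was called, at 1.58 (adjusted p = 0.00485), with 10.48 in shEZH2 and 10.80 in shNTC cells of Pfeiffer. That call was lost without either KARPAS-422 shEZH2 array, but those fits called no gene of the whole table and cannot decide on this one.

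With the hairpin as a term, 19 of the 37 genes were lower in KARPAS-422 than in Pfeiffer and 4 were higher, where 26.5% of all genes were called lower and 23.5% higher. Chaperones were lower for 9 of 12, with a median KARPAS-422 minus Pfeiffer difference of -0.75, and secretory genes for 7 of 9, with a median of -0.53, against -0.05 for all genes. Centring each array on its median moved the whole-table shares to 19.9% lower and 33.7% higher, with 15 of the 37 lower and 6 higher. Cyclic loess gave 22 lower and 3 higher, with all 9 secretory genes lower, where 29.3% of all genes were called lower and 22.2% higher.

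Among the chaperones, HYOU1 had the largest difference, at 10.20, 9.63, 10.38 and 10.74 on the KARPAS-422 arrays, against 11.61 and 11.71 on the Pfeiffer arrays (-1.42, SE 0.20, adjusted p = 7.00e-04). CRELD2 (-1.08, SE 0.16, adjusted p = 7.76e-04), PDIA6 (-1.06, SE 0.11, adjusted p = 1.18e-04), SDF2L1 (-0.91, adjusted p = 0.00326) and HSPA5 (-0.85, SE 0.16, adjusted p = 0.00285) were also lower in KARPAS-422. For these 5 genes every KARPAS-422 array lay below both Pfeiffer arrays, as was also so for MANF, PDIA4, CALR and PDIA3. The share of all genes with that arrangement is not given here. MANF (-0.74), PDIA4 (-0.76), CALR (-0.66) and PDIA3 (-0.27) were called too, while HSP90B1 (0.05), DNAJB11 (-0.01) and DNAJB9 (0.38, adjusted p = 0.0690) were not. PDIA3 lost its line call in 6 of 14 alternatives and PDIA4 in 1, while the calls of the other 7 held in all those run. The 14 do not count the replicate block, whose line term sets only the replicate 1 arrays of KARPAS-422 against Pfeiffer. In that fit PDIA3 was not called either (-0.25, adjusted p = 0.0936).

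Of the secretory genes SEC11C read 11.54, 11.63, 11.97 and 12.09 in KARPAS-422, against 13.02 and 13.32 in Pfeiffer (-1.36, SE 0.09, adjusted p = 1.42e-05). SEC61B (-0.87), FKBP11 (-0.71), TXNDC11 (-0.56), PPIB (-0.53), SSR4 (-0.39) and KDELR1 (-0.34, a call that held in 9 of 14 alternatives) were also called lower. SPCS3 (-0.23) and PRDX4 (-0.22) were not. HERPUD1 (-1.02, adjusted p = 0.0134) and DERL1 (-0.53, adjusted p = 0.00167) were lower in KARPAS-422, and DERL2 was higher (0.84, adjusted p = 5.88e-04). The HERPUD1 call held in 11 of 14 alternatives, and was lost with the mean of its kept probe sets (adjusted p = 0.0921), without probe sets that may cross-match (adjusted p = 0.234) and when the variance prior had no trend with signal (adjusted p = 0.0561). The DERL1 call held in 12 of 14, and moved to -0.21 when its kept probe sets were averaged (adjusted p = 0.0934) and to -0.09 without those that may cross-match (adjusted p = 0.560). The replicate block, which is not among the 14, sets only the replicate 1 arrays of KARPAS-422 against Pfeiffer. In that fit HERPUD1 (-0.76, adjusted p = 0.0619), TXNDC11 (-0.50, adjusted p = 0.0676) and KDELR1 (-0.32, adjusted p = 0.104) were not called.

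CREB3L2 read 4.68, 5.61, 5.004 and 6.20 in KARPAS-422, against 9.11 and 9.15 in Pfeiffer (-3.76, SE 0.43, adjusted p = 2.15e-04). It passed the filter on dim genes only through its 2 Pfeiffer arrays, so its place among the called genes follows in part from the filter. ATF6 (0.93, adjusted p = 0.00348) and EIF2AK3 (0.45, adjusted p = 0.0262) were higher in KARPAS-422. The ATF6 call held in 14 of 14 alternatives, but averaging its kept probe sets moved the difference to 0.46 (adjusted p = 0.0406). The EIF2AK3 call held in 10 of 14 alternatives and after cyclic loess was lost (0.36, adjusted p = 0.0544). It was also lost with the replicate block (0.43, adjusted p = 0.0929). That fit is not among the 14 and sets only the replicate 1 arrays of KARPAS-422 against Pfeiffer. With all 6 arrays, TRIB3 alone of the ATF4-type genes was called (1.55, SE 0.26, adjusted p = 0.00157), at 11.84, 12.08, 13.16 and 12.09 in KARPAS-422, against 10.51 and 10.97 in Pfeiffer. The other 5 lay between -0.07 and 0.54, and the median of the 6 was 0.40. Without shNTC replicate 1 the median was -0.13, TRIB3 was still higher (1.31, adjusted p = 2.64e-04), ATF4 was called lower (-0.38, adjusted p = 0.0346) and CHAC1 was at -0.95 (adjusted p = 0.0662). Without shNTC replicate 2, CHAC1 was at 1.37, ATF4 at 0.16 and DDIT3 at 0.53, against -0.38 for DDIT3 without replicate 1.

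Plasma cell markers also differed between the lines, in both directions. The summed linear signal of 8 such markers was 2886 to 3252 on the KARPAS-422 arrays, against 41813 and 38797 on the Pfeiffer arrays. JCHAIN (14.01 and 13.98 in Pfeiffer) and TNFRSF17 (14.00 and 13.73) weigh most in the Pfeiffer sums. They, MZB1, IRF4 and the dimmer PRDM1 and SLAMF7 were brighter in Pfeiffer, whereas SDC1 and the dim CD38 were brighter in KARPAS-422. XBP1 was also lower in KARPAS-422, with 10.30, 10.44, 11.76 and 10.79, against 12.96 and 13.08 in Pfeiffer (-2.20, adjusted p = 3.37e-04). The part of the plasma cell genes in the line difference was not tested, and with 1 line of each kind, line and any trait of that line cannot be told apart.

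**Figure D5:**
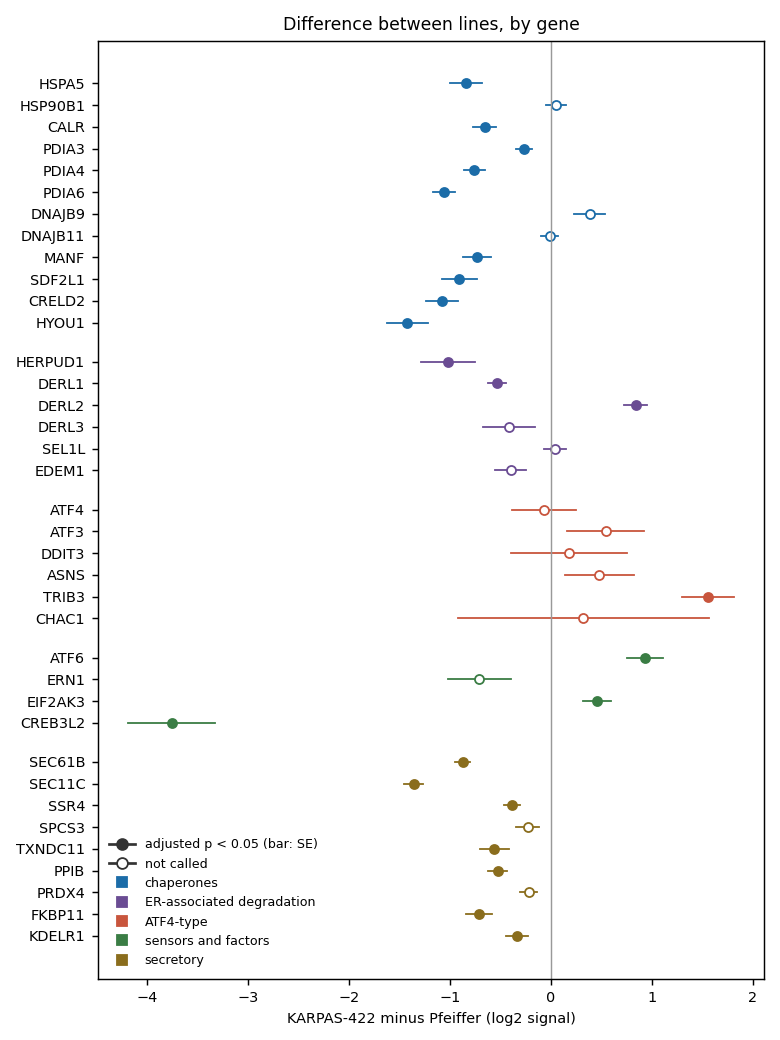
KARPAS-422 minus Pfeiffer difference (log2 signal) with its standard error for the 37 genes, by role; filled circles have an adjusted p under 0.05. Chaperones and secretory genes lie mostly below 0, CREB3L2 lies at -3.76, and TRIB3, ATF6, DERL2 and EIF2AK3 are called above 0.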

How the data were processed

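The deposited table holds log2 signals that the authors made with MAS5, per the submitters' processing notes, which give no version, log base or target. MAS5 summarises and scales each array separately. Read as powers of 2, all 6 arrays had a trimmed mean of 500 (2% left out at each end), which fits log2 values scaled to a common target. Neither detection calls nor scan dates were used here, and no batch was tested. Precision is limited by the number of arrays. Of 54675 probe sets, 41091 had 1 symbol and 1801 several in the platform annotation, which can be old.

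Genes were kept where at least 2 of 6 arrays lay above the median of all values (6.21). limma 3.58.1 in R 4.3.3 (lmFit, eBayes with an intensity trend, two-sided, Benjamini-Hochberg over 12961 genes, threshold 0.05) fitted 4 groups, with 2 residual degrees of freedom, all from KARPAS-422, and 5.29 prior ones. The single Pfeiffer arrays were assumed to vary like KARPAS-422. Both lines together and the line difference used additive terms. Scripts were tested on simulated data. Alternatives were cyclic loess, quantile and median scaling, no filter, other probe set choices, 16 or 64 added to linear values, no trend, a replicate block and each array left out.

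EZH2 and all 39 genes are named. Arrays are given one by one for EZH2, HSPA5, XBP1, the ATF4-type genes and up to 4 called genes per role and direction, plus others where a sentence turns on them, chosen after their values were seen. Of 93 other pathway genes (89 tested), up to 3 called per role and direction are named, plus SESN2 and CEBPB, chosen after their values were seen. The genes and lists were chosen with earlier results of these data known.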

Additional observations from a re-analysis of the deposited data

Results flagged for a closer look

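EIF2AK2 (PKR) differed between the lines in its response to shEZH2, by 1.58 log2 units (KARPAS-422 minus Pfeiffer, adjusted p = 0.00485), since it was 1.26 higher with shEZH2 in KARPAS-422 and 0.32 lower in Pfeiffer. It did not pass with either KARPAS-422 shEZH2 array left out, at 1.56 without replicate 1 and 1.61 without replicate 2. Those 2 fits called no gene of the whole table and so cannot decide on this one. It also did not pass when the variance prior had no trend with signal (adjusted p = 0.129), where 1 of 12961 genes was called. It held under the other 12 of 15 alternatives, with adjusted p between 0.00237 and 0.0149. Pfeiffer had 1 array per arm.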

How the results depend on the processing

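Counts over the 37 genes depended on scaling and on single arrays. In KARPAS-422, the 11 genes called lower became 7 after quantile normalization, 4 after cyclic loess, 5 with no filter and 0 without the intensity trend, and ranged from 1 to 10 when 1 KARPAS-422 array was left out. The 3 called higher became 0 without the trend and ranged from 0 to 4 with 1 array left out. Over both lines, the 3 called lower became 1 after quantile normalization and 7 after median centring. That count was 0 after cyclic loess, with no filter, without the trend or with any 1 KARPAS-422 array left out. The 0 called higher became 1 after cyclic loess. Without Pfeiffer only KARPAS-422 remained, so that fit, with 11 lower and 3 higher, does not bear on an effect shared by the lines. For the difference in response, the 0 called lower ranged from 0 to 5, with 5 without shNTC replicate 2. The whole table shrank too: without the trend 589 genes were higher and 141 lower in KARPAS-422, against 1703 and 1612, and with no filter 1372 and 1226 of 19775 were called. Of single genes, DERL1 reversed without cross-matching probe sets (0.41) and CHAC1 without shNTC replicate 1 (1.13, against -4.29 without shNTC replicate 2). MANF lost its KARPAS-422 call only without the trend (adjusted p = 0.0606), among 15 alternatives. The replicate numbers did not pair the samples: deviations of the replicate 1 arrays from their group means correlated at 0.001 between arms across 12961 genes. With the replicate block, 14 genes were lower and 3 higher in KARPAS-422, DDIT3 (adjusted p = 0.0258) and ASNS (adjusted p = 0.0255) among them, and over both lines 0 were lower. The line difference kept between 13 and 22 genes lower and between 3 and 6 higher. With 2 arrays per arm and 1 in Pfeiffer, small differences of dim genes were not detectable. Unless stated, the cause of a changed call was not tested.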
